A study of Mus musculus with 6 samples.

Results

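Wnt ligands, their receptors, their secreted antagonists and the nuclear factors of the pathway made up 53 of the 55011 genes in the count table. They were found by symbol, as all genes named Wnt, Fzd, Sfrp, Dkk or Rspo with a family number, together with Lrp5, Lrp6, Ror1, Ror2, Ryk, Frzb, Wif1, Axin2, Lef1, Tcf7, Tcf7l1 and Tcf7l2. Messenger RNA had been counted in 6 libraries of cultured stromal cells of mouse visceral fat, the connective-tissue cells among which adipocyte precursors are found. The cells lacked signal of the Il33 EGFP reporter (genotype label Il33-EGFP-) and were kept for 3 days either with irisin/HSP90α at 10 nM (the irisin libraries, n = 3) or with phosphate-buffered saline (PBS, n = 3). Irisin is a muscle hormone and HSP90α a chaperone. The labels do not state whether PBS wells also received HSP90α, which strain or age the mice had, or whether replicates were separate cultures, so the spread between replicates, and each p-value built on it, may be technical. The study asked whether irisin/HSP90α turns adipocyte precursors into immunomodulatory stromal cells.

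Wnt proteins are secreted lipid-modified ligands. In the canonical branch they bind a Frizzled receptor together with Lrp5 or Lrp6, β-catenin is spared from breakdown, and it activates genes with the factors Tcf7, Lef1, Tcf7l1 and Tcf7l2. Other branches run through Ror1, Ror2 and Ryk without β-catenin. Secreted Frizzled-related proteins (Sfrp genes and Frzb) and Wif1 bind Wnts, Dkk proteins act on Lrp5 and Lrp6, and R-spondins raise the number of receptors at the cell surface. In fat, canonical Wnt signalling is known for holding precursors back from becoming adipocytes.

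Of the 53 genes, 27 had enough reads to be tested, 18 had a count in some library but too few to test, and 8 had no read in any library. After irisin, 3 of the 27 tested genes fell, namely the antagonist Sfrp4, the ligand Wnt9a and the nuclear factor Tcf7l2, and the antagonist Sfrp2 rose. The 3 falls were 11.1% of the tested members, against 3.22% of all 12296 genes tested. The 1 rise was 3.70% of the members, against 4.2% of all genes. The median log2 fold change (LFC, irisin over PBS) was -0.06 over the members and -0.01 over all genes. The members' median was 0.06 without irisin replicate 1, 0.02 without PBS replicate 2, 0.04 with a count minimum of 50 and -0.14 with total counts alone, so its sign depended on these choices. Of the 27, groups did not overlap in 4 members with irisin above and 5 with irisin below, against 12.1% and 11.5% of all genes. A gene was called where edgeR's quasi-likelihood test gave an adjusted p below 0.05. Scaling by total counts alone, which moved the median LFC of all genes to -0.09, called 0 members higher and 6 lower. That scaling called 422 of all genes higher and 602 lower, against 516 and 396 here.

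**Figure D1:**
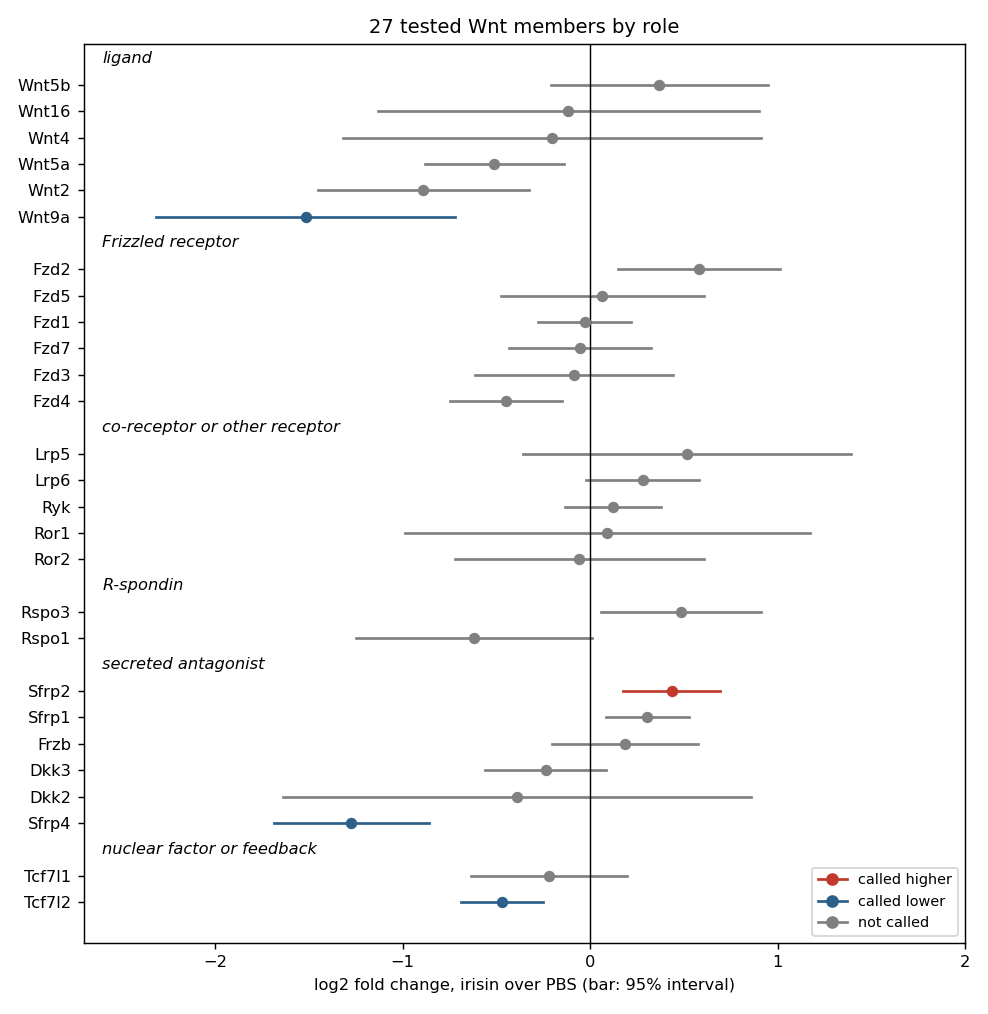
Log2 fold change of irisin over PBS (horizontal axis) for the 27 tested Wnt genes, grouped by role, with points for the estimate and bars for the 95% interval. Sfrp4, Wnt9a and Tcf7l2 lie left of 0 as called lower, Sfrp2 lies right of 0 as called higher, and the other 23 were not called.

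Libraries held 5360724 to 6588363 reads in irisin and 5271309 to 6745799 in PBS, so that a level of 1 CPM (reads scaled to library size) rested on 5.17 to 6.89 reads. The leading variance component (47.1%) separated treatments. The next (23.9%) set irisin replicate 1 and PBS replicate 3 apart from the other 4 libraries, and values without these libraries are given where they change a result. These libraries were picked from the same counts, so fits without both are no independent check. Such fits called 892 of all genes higher and 788 lower, against 516 and 396 with all libraries. All 10 fat stromal markers checked were tested, and 2 were higher (Pdgfra, LFC 0.60, and Col1a1, 0.49) and 2 lower (Cd34, -1.40, and Lum, -0.76). Their sum, mostly the collagens Col1a1 and Col3a1, was 43693 to 47759 CPM in irisin and 31827 to 38291 CPM in PBS, and Col1a1 no longer passed when irisin replicate 2 (adjusted p = 0.0985) or 3 (0.0725) was left out. Adipocyte markers summed to 47.8 to 54.9 CPM in irisin and 193 to 299 CPM in PBS, where 7 of 8 were tested, all 7 were lower, and Lep had no read. Smooth muscle and pericyte markers summed to 92.8 to 141 CPM in irisin and 139 to 190 CPM in PBS, with 3 of 6 tested markers lower. Endothelial markers summed to 18.4 to 26.2 CPM in irisin and 31.3 to 38.0 CPM in PBS, with 7 of 8 below 1 CPM and only Tek, which was lower, tested. Macrophage markers summed to 62.6 to 87.0 CPM in irisin and 66.7 to 83.0 CPM in PBS, mostly from Csf1r (59.2 ± 5.16 CPM in irisin and 59.7 ± 5.54 CPM in PBS), with 5 of 8 below 1 CPM and C1qa at 0. Mesothelial markers summed to 42.6 to 51.8 CPM in irisin and 35.7 to 41.5 CPM in PBS, mostly from Wt1, with 6 of 8 below 1 CPM. The part of these other cells in the falls of Sfrp4, Wnt9a and Tcf7l2 and in the rise of Sfrp2 was not tested. In bulk RNA, fewer cells of a type and less RNA per cell cannot be told apart.

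RefSeq start regions (GRCm38.p6, 250 bases before to 50 after the start) were at hand for 37 of the 53 genes, with 45 starts. They are shown for 3 of the 4 genes called, to let their base composition be seen, with each CG dinucleotide in capitals. The Sfrp2 region is chr3:83766071-83766370 on the plus strand, the Wnt9a region chr11:59306680-59306979 on the plus strand, and the first of 2 Tcf7l2 regions chr19:55741560-55741859 on the plus strand.
Sfrp2: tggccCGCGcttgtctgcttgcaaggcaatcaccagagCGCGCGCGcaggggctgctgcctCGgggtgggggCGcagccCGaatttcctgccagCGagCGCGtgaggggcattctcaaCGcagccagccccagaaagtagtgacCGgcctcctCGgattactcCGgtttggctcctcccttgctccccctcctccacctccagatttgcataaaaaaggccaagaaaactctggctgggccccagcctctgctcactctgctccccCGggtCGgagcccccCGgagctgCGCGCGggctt
Wnt9a: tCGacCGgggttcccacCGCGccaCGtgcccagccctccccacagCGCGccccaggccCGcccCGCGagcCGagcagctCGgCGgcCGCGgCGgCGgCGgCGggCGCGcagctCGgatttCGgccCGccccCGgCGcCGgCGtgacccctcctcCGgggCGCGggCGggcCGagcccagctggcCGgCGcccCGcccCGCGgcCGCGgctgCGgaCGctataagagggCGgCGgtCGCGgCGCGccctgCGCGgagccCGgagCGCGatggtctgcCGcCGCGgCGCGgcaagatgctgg
Tcf7l2: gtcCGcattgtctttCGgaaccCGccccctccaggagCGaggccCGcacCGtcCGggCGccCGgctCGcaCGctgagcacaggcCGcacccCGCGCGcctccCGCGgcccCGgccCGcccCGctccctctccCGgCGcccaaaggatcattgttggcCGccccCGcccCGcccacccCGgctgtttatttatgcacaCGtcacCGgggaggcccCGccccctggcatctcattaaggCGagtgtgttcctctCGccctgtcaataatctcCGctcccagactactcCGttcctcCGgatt
All 3 were rich in CG, with 22 in Sfrp2, 58 in Wnt9a and 34 in Tcf7l2, whereas the other Tcf7l2 region held 7. The median was 26 over the 45 starts of the Wnt genes and 7 over the 32851 starts in the table. These 3 windows held neither CTTTGAA nor CTTTGAT, letters bound by TCF and LEF factors, on either strand. The same letters occurred in 3 of the 45 starts, at Dkk1, Wnt11 and Wnt5b, and in 8.65% of all starts. An NF-κB motif was found in none of the 45 and in 1.63% of all starts on either strand.

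The secreted antagonists were the most abundant role. Per kb of exon, Sfrp2 stood highest of the 27 tested genes with 258 ± 40.3 CPM per kb in irisin and 190.5 ± 20.8 in PBS (SD, n = 3 each), and Sfrp1 was next with 44.9 ± 4.53 in irisin and 36.3 ± 3.40 in PBS. Sfrp2 alone held 81.3 ± 3.08% of the summed antagonist level per kb in irisin and 77.2 ± 2.93% in PBS. Of 10 antagonist genes, 6 were tested, 1 rose and 1 fell. Dkk1, Dkk4, Sfrp5 and Wif1 had no read in any library, where 3 reads would have been 0.471 to 0.580 CPM in irisin and 0.435 to 0.552 CPM in PBS.

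Sfrp4, a secreted Frizzled-related protein, changed most among the antagonists. It had 18.6, 11.6 and 15.2 CPM in irisin replicates 1, 2 and 3, against 43.0, 29.0 and 38.5 CPM in PBS replicates 1, 2 and 3. The lowest PBS library thus lay above the highest irisin library. The mean level was 15.1 ± 3.49 CPM in irisin and 36.8 ± 7.13 CPM in PBS, a 2.42-fold lower level with irisin (LFC -1.27 ± 0.19, adjusted p = 0.000790, 95% interval -1.69 to -0.86). Sfrp4 was the only member called under each of the alternatives run, with adjusted p of at most 0.0194. Of the marker sums given above, those of adipocytes, endothelial cells, and smooth muscle and pericytes had a lower mean in irisin. That of macrophages was slightly lower (72.2 CPM in irisin and 73.2 CPM in PBS). The groups overlapped in the macrophage sum and in the smooth muscle and pericyte sum. The fat stromal and mesothelial sums had a higher mean in irisin. The part of these cells in the fall of Sfrp4 was not tested. Sfrp4 lies on chromosome 13 from 19623104 to 19632994 (GRCm38, GENCODE M21) on the plus strand, in 6 separate exon blocks with no other annotated exon over them.

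Sfrp2, a related antagonist, moved the other way. It had 457, 623 and 583 CPM in irisin, against 453, 413 and 364 CPM in PBS. The groups did not overlap, but irisin replicate 1 and PBS replicate 1 lay close together. The mean was 555 ± 86.8 CPM in irisin and 410.1 ± 44.9 CPM in PBS (1.35-fold, LFC 0.43 ± 0.12, adjusted p = 0.0471). The call was lost without irisin replicate 2 or 3 or any PBS replicate (adjusted p 0.236, 0.177, 0.0550, 0.128 and 0.107) and with total counts alone (0.0878). It was also lost without robust dispersion, with a count minimum of 50, with a replicate block and against a 1.5-fold change. In all, Sfrp2 passed in 7 of 17 alternatives. Leaving out irisin replicate 1 and PBS replicate 3 together raised the calls over all genes to 892 higher and 788 lower. For Sfrp2, LFC was then 0.48 with an adjusted p of 3.33e-08. Sfrp2 lies on chromosome 3 (83766321 to 83774316), and 347 of its exon bases are also exon of Gm26771 on the opposite strand. That gene had at most 11 reads in a library, and the strand setting of the counting is not given in the sources used here.

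Sfrp1, the other abundant antagonist, had 201, 213 and 174 CPM in irisin, against 152, 149 and 176 CPM in PBS. PBS replicate 3 lay above the lowest irisin library, and the test was not passed (LFC 0.31 ± 0.10, adjusted p = 0.101). Without PBS replicate 3 it was called higher (LFC 0.39, adjusted p = 0.00822), as it was without both libraries that stood apart (0.00191) and with limma-voom. Dkk3, which unlike its relatives does not act as a plain Lrp5 and Lrp6 blocker, had 22.2, 17.2 and 19.2 CPM in irisin and 24.7, 21.7 and 22.8 CPM in PBS (LFC -0.24 ± 0.15, adjusted p = 0.466). Its groups overlapped. Frzb, also a Wnt-binding antagonist, averaged 12.4 ± 1.52 CPM in irisin and 10.9 ± 1.04 CPM in PBS, and Dkk2, which binds Lrp5 and Lrp6, averaged 1.30 ± 0.88 CPM in irisin and 1.61 ± 0.94 CPM in PBS. Neither was called (adjusted p = 0.686 for Frzb and 0.817 for Dkk2).

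**Figure D2:**
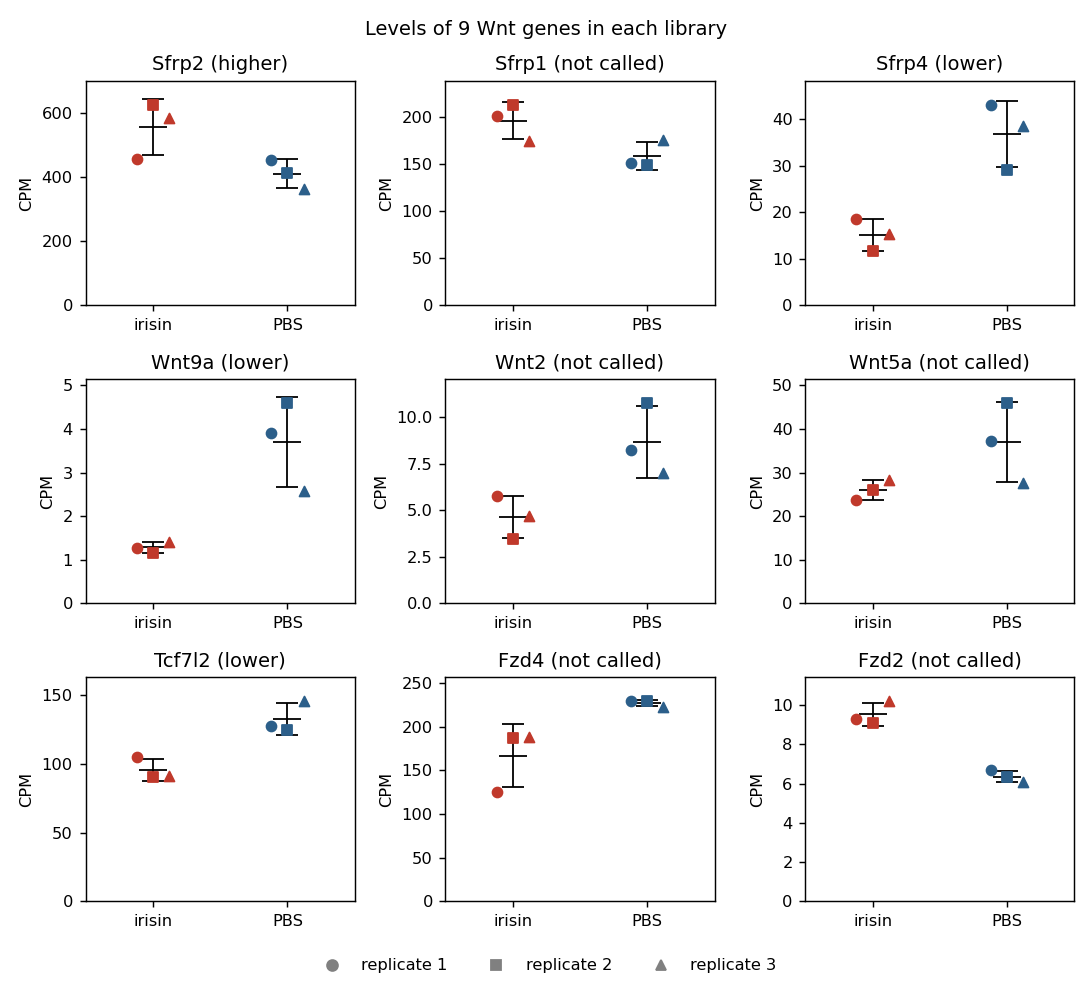
Level in CPM (vertical axes, from 0) of 9 Wnt genes in each library, irisin in red and PBS in blue, with symbols for replicates and black bars for mean ± SD. Sfrp4, Wnt9a and Tcf7l2 are lower in all 3 irisin libraries than in any PBS library, and Sfrp2 is higher in all 3, with irisin replicate 1 (457 CPM) near PBS replicate 1 (453 CPM).

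Few Wnt ligands reached a level that could be tested. Of 19 ligand genes, 6 were tested, 11 had a few reads and 2, Wnt3 and Wnt3a, had none. Wnt5a led the ligands with 3.33 ± 0.29 CPM per kb in irisin and 4.72 ± 1.17 in PBS. It was followed by Wnt2 with 2.06 ± 0.51 in irisin and 3.85 ± 0.85 in PBS, and by Wnt5b with 2.00 ± 0.30 in irisin and 1.56 ± 0.28 in PBS. Summed over the 19 genes, the ligand level was 9.19 to 9.36 CPM per kb in irisin and 10.5 to 15.8 in PBS, and 1 of the 6 tested ligands fell and none rose.

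Wnt9a, a ligand of limb and joint development in the mouse, was the ligand called. It had 1.28, 1.16 and 1.41 CPM in irisin, against 3.92, 4.59 and 2.58 CPM in PBS. These levels stood on 8, 6 and 9 reads in irisin and 27, 29 and 14 reads in PBS, with no overlap. Wnt9a was 2.86-fold lower with irisin (LFC -1.52 ± 0.37, adjusted p = 0.0235, 95% interval -2.31 to -0.72). The call was lost without irisin replicate 1, 2 or 3 (adjusted p 0.0752, 0.1005 and 0.0769) and without PBS replicate 1 or 2 (0.0930 and 0.116). It was also lost with DESeq2 (0.0571), with a replicate block and against a 1.5-fold change. In all, Wnt9a passed in 8 of 16 alternatives, while LFC stayed between -1.70 and -1.33 over them. Wnt9a lies on chromosome 11 (59306928 to 59333552), 16.2 kb from Wnt3a, which had no read.

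Wnt2, a canonical ligand of lung and vessel development, had 5.76, 3.48 and 4.71 CPM in irisin, against 8.27, 10.8 and 7.00 CPM in PBS. The groups did not overlap, but the test was not passed (LFC -0.89 ± 0.26, adjusted p = 0.0593). It was called lower without PBS replicate 3 (0.0215) and without both libraries that stood apart (LFC -1.19, adjusted p = 0.00435). Wnt5a, the main ligand of Ror receptors, had 23.7, 26.1 and 28.3 CPM in irisin, against 37.3, 46.0 and 27.6 CPM in PBS. PBS replicate 3 lay within the irisin range, and the test was not passed (LFC -0.51 ± 0.17, adjusted p = 0.107). Without PBS replicate 3 Wnt5a was called lower (LFC -0.67, adjusted p = 0.00337), and likewise without both libraries (LFC -0.61, adjusted p = 0.00172). Wnt2 and Wnt5a were also called lower with total counts alone (0.0361 and 0.0499), with limma-voom and with no low-count filter.

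Wnt5b, the close relative of Wnt5a, had 5.76, 5.80 and 4.40 CPM in irisin, against 3.63, 3.80 and 4.97 CPM in PBS. Its groups overlapped (LFC 0.37 ± 0.27, adjusted p = 0.549). Its share of the summed ligand level per kb was 21.7 ± 3.15% in irisin and 12.4 ± 4.69% in PBS, while that of Wnt5a was 36.0 ± 3.20% in irisin and 35.7 ± 1.92% in PBS. Wnt4 and Wnt16 averaged 1.34 ± 0.83 and 1.48 ± 0.34 CPM in irisin and 1.52 ± 0.37 and 1.55 ± 0.79 CPM in PBS, too few reads for a narrow interval (LFC from -1.32 to 0.91 for Wnt4 and from -1.13 to 0.90 for Wnt16).

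The other ligands had at most 17 reads in a library. Wnt11 had 6, 13 and 9 reads in irisin and 7, 17 and 6 in PBS. Wnt2b had 1, 2 and 4 reads in irisin and 9, 4 and 3 in PBS. Wnt6, which neighbours Wnt10a, had 1, 0 and 1 reads in irisin and 8, 5 and 3 in PBS. These 3 fell short of the filter for testing, and with no filter none of them was called. Wnt10b, known as a brake on adipocyte formation in the mouse, had 2, 1 and 0 reads in irisin and 1, 1 and 0 in PBS. Wnt1, Wnt7a, Wnt7b, Wnt8a, Wnt8b, Wnt9b and Wnt10a had at most 5 reads in any library, so differences in them were not detectable at this depth.

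**Figure D3:**
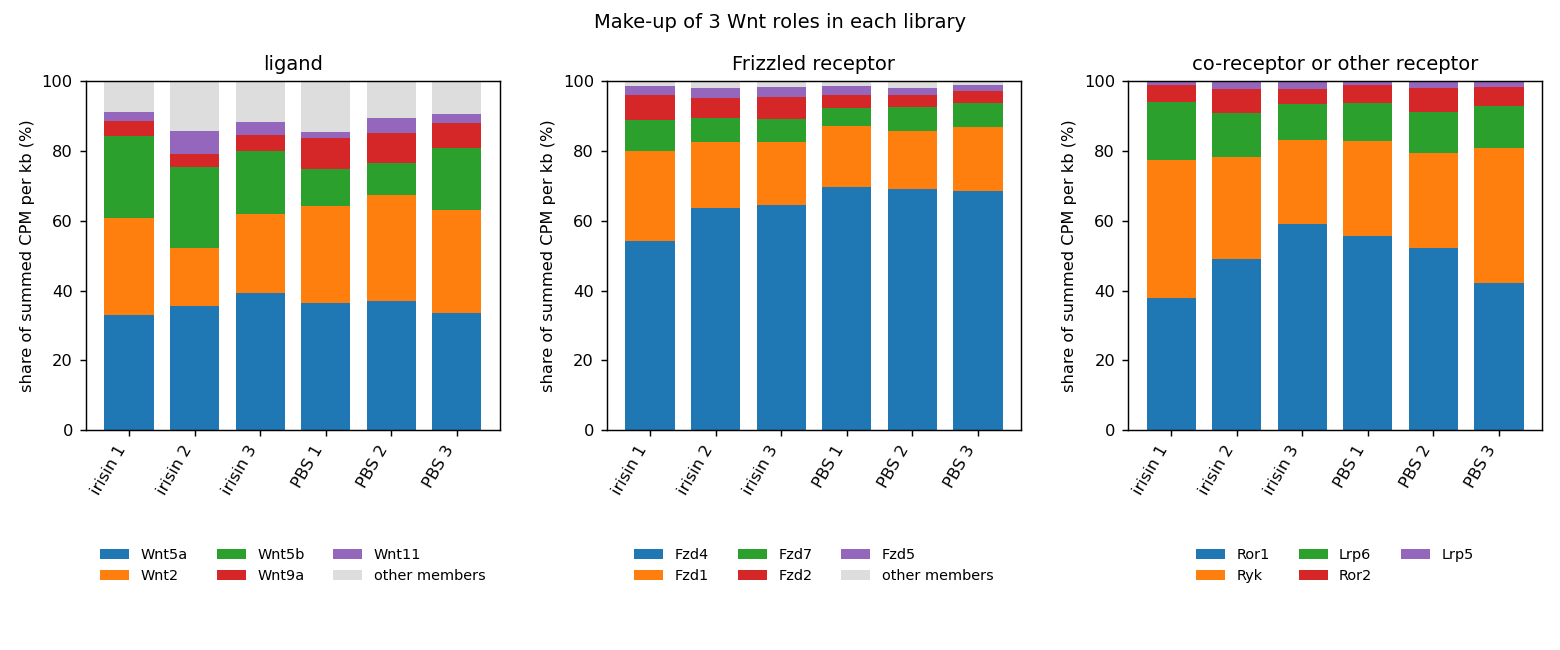
Share of the summed level (CPM per kb of exon, in %) held by the leading genes of the ligands, the Frizzled receptors and the other receptors, for each of the 6 libraries. The remaining ligands and Frizzled genes are pooled. Fzd4 holds 54.1 to 64.4% of the Frizzled level in irisin and 68.6 to 69.7% in PBS, and Wnt5a holds 32.9 to 39.3% of the ligand level in irisin and 33.5 to 37.2% in PBS.

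Fzd4 was the leading Frizzled gene, the receptor that in retinal vessels also binds Norrin. It had 125, 187 and 188 CPM in irisin, against 229, 229.6 and 223 CPM in PBS. All irisin libraries lay below all PBS libraries, and irisin replicate 1 was far below the other two. The test was not passed (LFC -0.45 ± 0.14, adjusted p = 0.0773). With total counts alone and with DESeq2 Fzd4 was called lower (0.0268 and 0.0345), and without the libraries that stood apart LFC was -0.29 with an adjusted p of 0.00111. Fzd4 was also called lower with limma-voom and with no low-count filter. Its share of the summed Frizzled level per kb was 60.7 ± 5.78% in irisin and 69.1 ± 0.55% in PBS.

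Fzd2 belongs to the subfamily of Fzd1 and Fzd7. It had 9.28, 9.08 and 10.2 CPM in irisin, against 6.68, 6.34 and 6.08 CPM in PBS, with no overlap, but was not called (LFC 0.58 ± 0.20, adjusted p = 0.112). Fzd1 had 37.4, 34.8 and 33.0 CPM in irisin, against 35.8, 34.4 and 37.2 CPM in PBS, overlapping groups whose LFC interval ran from -0.28 to 0.22. Fzd7 had 13.6, 13.5 and 12.9 CPM in irisin and 11.3, 15.2 and 15.1 CPM in PBS (interval -0.43 to 0.33). Fzd3 and Fzd5 averaged 6.84 ± 1.27 and 7.55 ± 1.73 CPM in irisin and 7.17 ± 1.60 and 7.13 ± 1.53 CPM in PBS, with overlapping groups. Fzd8 had 1 to 11 reads, Fzd6 and Fzd10 at most 2, and Fzd9 none. Thus 0 of 6 tested Frizzled genes were called, with unadjusted p below 0.05 for Fzd4 and Fzd2 (0.00703 and 0.0122), and DESeq2 called Fzd4.

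Among the co-receptors and other receptors, 0 of 5 were called by edgeR or DESeq2, and none had an unadjusted p below 0.05. Lrp6, which pairs with Frizzleds in the canonical branch, had 47.0, 49.5 and 44.0 CPM in irisin, against 43.8, 41.0 and 30.4 CPM in PBS. The groups touched without overlap (LFC 0.28 ± 0.14, adjusted p = 0.322). Its relative Lrp5 averaged 5.40 ± 2.77 CPM in irisin and 3.73 ± 1.04 CPM in PBS (adjusted p = 0.585). Ryk, an atypical kinase receptor of Wnts, had 37.0, 38.7 and 34.6 CPM in irisin, against 36.6, 32.0 and 32.4 CPM in PBS (LFC interval -0.13 to 0.38).

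Ror1, a Wnt5a receptor with the highest level per kb of this role (13.5 ± 5.41 CPM per kb in irisin and 12.6 ± 4.46 in PBS), varied more within groups than between them. It had 44.8, 81.9 and 107 CPM in irisin, against 95.3, 78.0 and 44.7 CPM in PBS. The 2 low values came from irisin replicate 1 and PBS replicate 3, the libraries that stood apart over all genes. LFC was 0.09 ± 0.42 (adjusted p = 0.953) and turned to -0.21 without irisin replicate 3 and to -0.15 without PBS replicate 3. Ror2, its relative, was also lowest in these libraries, with 4.16, 8.50 and 5.50 CPM in irisin and 6.53, 7.76 and 4.23 CPM in PBS (adjusted p = 0.958). Both libraries lay below the other 4 in 5 of the 27 tested members, namely Ror1, Ror2, Lrp5, Fzd3 and Fzd5, and above them in Fzd1. Over all genes tested the shares were 14.4% below and 12.9% above.

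**Figure D4:**
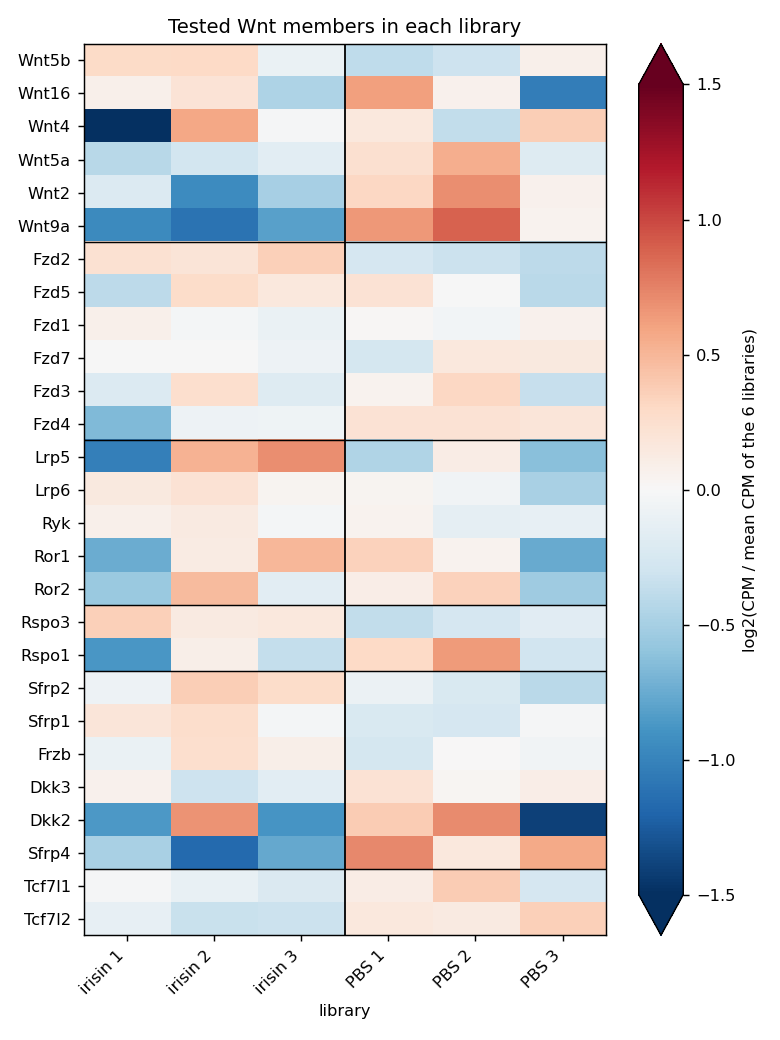
Level of each tested Wnt gene (rows, ordered by role) in each library (columns), as log2 of CPM over the mean of the 6 libraries, red above and blue below that mean. Sfrp4 and Wnt9a are blue in the 3 irisin columns, whereas Ror1 is blue in irisin replicate 1 and PBS replicate 3.

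R-spondins enhance Wnt signals by binding Lgr receptors and removing the ligases Rnf43 and Znrf3. Of 4 genes 2 were tested, and 0 were called by edgeR or DESeq2, with an unadjusted p below 0.05 for Rspo3 (0.0296). Rspo1 had 4.16, 8.12 and 5.97 CPM in irisin, against 9.43, 11.9 and 6.26 CPM in PBS, overlapping groups (LFC -0.62 ± 0.29, adjusted p = 0.286). Rspo3 had 10.9, 9.28 and 9.43 CPM in irisin, against 6.53, 7.13 and 7.55 CPM in PBS, with no overlap (LFC 0.48 ± 0.20, adjusted p = 0.200). The share of Rspo1 in the summed R-spondin level per kb was 47.5 ± 10.3% in irisin and 65.3 ± 8.36% in PBS. Rspo2 had 3 to 7 reads per library and Rspo4 none.

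Among the nuclear factors, Tcf7l2, which binds β-catenin at target genes, had the highest level per kb (10.9 ± 0.92 CPM per kb in irisin and 15.1 ± 1.30 in PBS) and fell. It had 105, 90.4 and 91.6 CPM in irisin, against 127, 125 and 146 CPM in PBS. The highest irisin library lay below the lowest PBS library, and the level was 1.39-fold lower (LFC -0.47 ± 0.10, adjusted p = 0.0110, 95% interval -0.69 to -0.25). The call was lost without irisin replicate 2 (adjusted p = 0.0817) or irisin replicate 3 (0.0760), and against a 1.5-fold change. Tcf7l2 spans chromosome 19 from 55741820 to 55933654, and counts summed over the gene do not tell its many splice forms apart. Tcf7l1, which mostly represses Wnt target genes, had 12.6, 11.8 and 11.0 CPM in irisin, against 13.8, 16.6 and 10.7 CPM in PBS, with overlapping groups (LFC -0.22 ± 0.19, adjusted p = 0.642).

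Lef1 had 0, 2 and 3 reads in irisin and 2, 0 and 7 in PBS, and Tcf7 had 2, 3 and 2 in irisin and 4, 2 and 1 in PBS. Axin2, a direct β-catenin target that feeds back on the pathway, had 16, 3 and 5 reads in irisin, against 9, 7 and 7 in PBS. The highest and the lowest of these counts were both from irisin libraries, and Axin2 had too few reads to be tested. In the fit with no low-count filter Axin2 was not called. On so few reads this does not exclude a change.

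Other genes of the pathway, from 6 lists by function, gave 76 tested genes (some stand in more than 1 list), of which 2 were higher and 3 lower (2.63% and 3.95%, against 4.2% and 3.22% of all genes). All 3 falls were among the 7 tested genes of Wnt secretion and release. Sulf2, a sulfatase that trims heparan sulfate and thereby frees Wnts at the cell surface, had 57.9, 52.0 and 64.4 CPM in irisin, against 129, 136 and 118 CPM in PBS (LFC -1.13 ± 0.11, adjusted p = 1.44e-05). Gpc3, a glypican that binds Wnts, had 27.7, 28.2 and 29.7 CPM in irisin, against 45.4, 52.4 and 44.6 CPM in PBS (LFC -0.73 ± 0.12, adjusted p = 0.00140). Sulf1, the other sulfatase of this kind, had 270.3, 243 and 271 CPM in irisin, against 319, 329 and 344 CPM in PBS (LFC -0.34 ± 0.08, adjusted p = 0.0237), and lost its call without irisin replicate 2 or 3 or PBS replicate 1 or 2 (adjusted p 0.169, 0.0786, 0.0676 and 0.0765). The calls of Sulf1 and Gpc3 were also lost against a 1.5-fold change, and that of Sulf1 with a replicate block. The groups did not overlap in Sulf2, Gpc3 or Sulf1. Porcn, the acyltransferase that attaches the lipid to Wnts, was named after its values were seen. It had 12.2, 11.8 and 11.5 CPM in irisin, against 6.24, 8.87 and 6.26 CPM in PBS, without overlap, and just missed the threshold (LFC 0.73 ± 0.20, adjusted p = 0.0505). It was called higher without PBS replicate 2 (0.0332), with RLE factors (0.0493), with limma-voom (0.0388) and with a count minimum of 50 (0.0482), and its adjusted p reached 0.187 without PBS replicate 1. The median LFC of the 7 genes was -0.29.

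In the list of further inhibitors and receptor turnover, 1 of 7 tested genes changed. Draxin, a guidance protein that also blocks Wnt signals, had 107, 144 and 136 CPM in irisin, against 78.4, 79.5 and 53.0 CPM in PBS (LFC 0.87 ± 0.16, adjusted p = 0.00658), without overlap. Its call was lost against a 1.5-fold change and kept in 16 of 17 alternatives. Apcdd1, an inhibitor at the membrane that is also a Wnt target, was named after its values were seen. It averaged 5.17 ± 1.37 CPM in irisin and 9.76 ± 2.64 CPM in PBS (LFC -0.91 ± 0.27, adjusted p = 0.0620), and passed without PBS replicate 3 (0.00753). Apcdd1 was also called lower without both libraries that stood apart, with total counts alone, with limma-voom and with no low-count filter.

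Of the 22 cytoplasmic genes around β-catenin, 1 changed. Csnk1a1, a kinase that marks β-catenin for breakdown, had 442, 444 and 420.3 CPM in irisin, against 347, 364 and 361 CPM in PBS (LFC 0.29 ± 0.08, adjusted p = 0.0401). That call was lost without any of irisin replicates 1, 2 and 3 (adjusted p 0.120, 0.194 and 0.108) and without PBS replicate 1 or 2 (0.179 and 0.104). It was also lost with DESeq2 (0.0538), total counts alone (0.150), no low-count filter, a replicate block and against a 1.5-fold change. In all, Csnk1a1 passed in 7 of 17 alternatives. Ctnnb1, which encodes β-catenin and was named after its values were seen, averaged 105 ± 4.26 CPM in irisin and 99.1 ± 0.29 CPM in PBS (LFC interval -0.11 to 0.27). Tested genes also included 15 nuclear cofactors, 11 textbook β-catenin targets outside the members and 17 planar polarity or non-canonical genes. The main edgeR fit and DESeq2 called 0 of them. Apcdd1, which is also among these targets, was called lower in the alternatives given above. The median LFC of these lists, in this order, was 0.01, -0.10 and -0.03, and 1, 4 and 6 of their genes had an unadjusted p below 0.05. The share of all genes below that unadjusted cutoff was not worked out, here or for the receptors and R-spondins. Such counts are therefore not read as a result about these genes.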

How the data were processed

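Polyadenylated RNA of 6 libraries was measured by the ImmGen ultra-low-input protocol, per the labels' protocols. The authors deposited whole-number read counts per gene, made with STAR 2.7.3a and featureCounts on mm10, per the submitters' processing notes. Not given in the sources used here: annotation release, strand setting and handling of multiply mapped reads. The Wnt genes and all other gene lists were chosen with earlier results of these data known.

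Groups came from the treatment labels. Counts were fitted for all genes in edgeR 4.0.16 (R 4.3.3), with filterByExpr at a count minimum of 10, TMM factors and the robust quasi-likelihood test between irisin and PBS. P-values were Benjamini-Hochberg adjusted over 12296 genes, with a threshold of 0.05. The standard error was the absolute LFC over the root of the F statistic, and 95% intervals used the t distribution with the fit's degrees of freedom. CPM used TMM-scaled library sizes. Levels per kb used merged exon lengths of GENCODE M21 (GRCm38), in which all 53 genes were found. No 2 libraries agreed within sampling noise, with chi-square per degree of freedom of at least 2.72. Floors of 3 reads cover counting error only. The edgeR step was run on simulated counts with a common spread for all genes and no libraries standing apart. That run cannot show how the test performs with the uneven spread of these data.

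Values in every library are given for Wnt genes that were called, had an adjusted p up to 0.10, or were among the 3 with the highest level per kb of their role. Outside this rule, they are also given for Fzd2, for Ror2 and, as reads, for some genes with too few reads to test. In the other pathway lists, called genes are given, up to 4 per list. Alternatives were RLE, upper quartile and no scaling factors, DESeq2 1.42.0, limma-voom 3.58.1, no robust dispersion, no filter, a count minimum of 50, a replicate block, leaving out libraries, a looser threshold of 0.10, and glmTreat at 1.5-fold.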

Additional observations from a re-analysis of the deposited data

How the results depend on the processing

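The count of Wnt genes called higher, 1, became 0 with total counts alone, without robust dispersion, with a count minimum of 50 and in the test against a 1.5-fold change, and 2 with limma-voom and without both libraries that stood apart (irisin replicate 1 and PBS replicate 3). It ran from 0 to 1 when single libraries were left out. The 3 called lower became 6 with total counts alone, limma-voom, no low-count filter and both libraries left out, 5 at an adjusted p of 0.10 and 1 against a 1.5-fold change, with 1 to 5 over single libraries left out. Of the other pathway genes, the 2 called higher became 1 with total counts alone and with DESeq2, 6 without both libraries and 0 against a 1.5-fold change (1 to 3 over single libraries), and the 3 called lower became 6 with total counts alone, limma-voom and an adjusted p of 0.10, 5 with no filter, 8 without both libraries and 1 against a 1.5-fold change (2 to 7). Over all genes, 892 were higher and 788 lower without both libraries, 165 and 108 against a 1.5-fold change, and 602 lower with total counts alone, with 336 to 705 higher and 238 to 585 lower over single libraries left out. The cause of these shifts was not tested.

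LFC changed sign in some setting for 8 of the 27 tested Wnt genes, of which 0 had been called. Over single libraries left out, Fzd1 ran from -0.079 to 0.015, Fzd3 from -0.24 to 0.078, Fzd5 from -0.077 to 0.25, Fzd7 from -0.18 to 0.023, Ror1 from -0.21 to 0.37, Ror2 from -0.36 to 0.15, Wnt4 from -0.65 to 0.21 and Wnt16 from -0.41 to 0.31. Fzd5 was also -0.012 with total counts alone, Fzd7 0.0041 with limma-voom and Wnt4 0.35 without both libraries. The median LFC of the Wnt genes ran from -0.18 to 0.055 over single libraries left out and was 0.036 with a count minimum of 50. The macrophage marker log2 ratio, -0.02, ran from -0.18 to 0.082 and was 0.134 without both libraries.

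Same-numbered irisin and PBS libraries had deviations correlated at -0.24, 0.16 and -0.18, and not every library correlated best with its own number. The highest correlation, 0.36, was between irisin replicate 1 and PBS replicate 3, the libraries that stood apart. Deviations were taken from the mean of each group, which ties these values to each other. They cannot decide whether libraries of the same number were paired. With a replicate block, 0 Wnt genes were called higher and 2 lower, 1 other pathway gene was higher, and 422 of all genes were higher and 269 lower.

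With 5 to 7 reads per CPM, genes near 1 CPM such as Wnt9a rest on few reads, and smaller changes in such genes were not detectable.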
